A study of Laxus oneistus with 16 samples.

Results

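The globin-like transcripts of the ectosymbiotic marine nematode *Laxus oneistus* were followed across 4 incubations that differed in oxygen and sulfide. They are 3 of the 27984 transcripts quantified in the study, and they were chosen by name, as the loci that the study's annotation matched to *glb-1*-like (2 loci) or *glb-14*-like. TRINITY_DN84338_c0_g1_i3_9dedup, here *glb-1*-like DN84338, had its best protein match in a myoglobin of *Trichinella nelsoni*. TRINITY_DN51537_c0_g1_i1_4dedup, here *glb-1*-like DN51537, matched a putative myoglobin of *Haemonchus contortus*. TRINITY_DN89314_c0_g1_i2_9dedup, here *glb-14*-like DN89314, matched a globin-like protein of the horseshoe crab *Limulus polyphemus*. All 3 entered the annotation because their transcript or their protein was among the most abundant of the worm, so their high level is not a finding. The study also reported globin genes of these names as upregulated in AS against H (the anoxic sulfidic against the hypoxic condition). That comparison is therefore not independent of the choice. Their roles in *L. oneistus* are known only from these matches.

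Globins are small proteins that hold a heme group, and the iron of that heme binds oxygen reversibly. Myoglobins keep oxygen in muscle and ease its diffusion through the cell, whereas hemoglobins carry it in blood or body fluid. Nematodes have many globin genes. The hemoglobin of the parasite *Ascaris* is known for binding oxygen very tightly, and in *Caenorhabditis elegans* *glb-1* encodes a myoglobin-like globin. In the tubeworms of hydrothermal vents, hemoglobins carry sulfide as well as oxygen to the symbiotic bacteria.

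Adult worms were picked from shallow sand on several field trips, and batches of 50 were kept for 24 h in the dark in filtered seawater before RNA was taken from the whole worms, bacterial coat included. Vials of the oxic condition (O, n = 6 batches) stood open in an air-bubbled aquarium, and those of the hypoxic condition (H, n = 3) stood open to the air. Vials of the anoxic condition (A, n = 4, labelled 1, 2, 3 and 5) and of the anoxic sulfidic condition (AS, n = 3) stood in glove bags flushed with nitrogen, and AS alone received 11 µM sulfide. AS and H therefore differed in both oxygen and sulfide, AS and A in sulfide, and A and H in oxygen. Each library is 1 batch, so that a p-value measures the spread between batches, and the labels do not say which batches shared a field trip.

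Library totals ranged from 9032241 to 18627740 counts. In 5 libraries (A replicates 3 and 5, O replicates 2, 3 and 5) between 23596 and 25931 transcripts were detected at equal depth, against 17581 to 20827 in the other 11, and these 5 are called libraries with additional transcripts. None of them belonged to H or AS. All muscle and yolk markers and the collagen *col-96*-like were detected in every library, whereas the collagen *col-113*-like had between 0 and 33 counts.

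Levels are in CPM, a transcript's counts scaled to a common library total, with TMM scaling to correct library size for differences in composition. CPM is not divided by transcript length, so differences are given only for 1 transcript between libraries, and a rank by CPM depends on length as well as on abundance. In bulk RNA, fewer cells of a type and less RNA per cell cannot be told apart. All 3 globin-like transcripts passed the filter on low counts in both fits. By mean CPM *glb-1*-like DN84338 ranked 49, *glb-1*-like DN51537 ranked 239 and *glb-14*-like DN89314 ranked 348 among the 27984.

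*Glb-1*-like DN84338, the one with the highest CPM, made up 0.103% to 0.202% of all counts in a library. In O its level ranged from 1083 to 1966 CPM with a median of 1503 over 6 libraries. H libraries held 1204, 1015 and 1167 CPM (replicates 1, 2 and 3), and A libraries 1103, 1010, 1336 and 1353 CPM (replicates 1, 2, 3 and 5). The AS libraries held 1844, 1149 and 1548 CPM. H was thus a narrow group at the low end, whereas O and AS reached from that low end to the highest values. Means were 1514 ± 349 CPM in AS (SD, n = 3), 1480 ± 299 in O (n = 6), 1200 ± 170 in A (n = 4) and 1129 ± 100 in H (n = 3).

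*Glb-1*-like DN51537, the other myoglobin match, varied more. It ranged in O from 245 to 593 CPM with a median of 412. The H libraries held 311, 242 and 334 CPM, the A libraries 251, 299, 402 and 619 CPM, and the AS libraries 784, 448 and 523 CPM. All 3 AS libraries exceeded all 3 H libraries, and A spread over nearly the whole range between them. Means were 585 ± 176 CPM in AS, 432 ± 123 in O, 393 ± 163 in A and 295.5 ± 47.7 in H (SD).

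*Glb-14*-like DN89314 ranged in O from 244 to 522 CPM with a median of 367. The H libraries held 279, 199 and 217 CPM, the A libraries 178, 198, 287 and 386 CPM, and the AS libraries 638, 344 and 515 CPM. As with DN51537, every AS library lay above every H library, and the 2 lowest of all 16 libraries were A replicates 1 and 2. Means were 499 ± 148 CPM in AS, 362.3 ± 93.1 in O, 262.6 ± 95.1 in A and 231.5 ± 41.8 in H (SD).

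Each of the 3 transcripts had the same order of condition means, AS above O above A above H. How many of all transcripts share that order was not counted, and the 3 varied together across libraries. No pair of neighbours in that order was separated, since the libraries of AS and O, of O and A and of A and H overlapped in each transcript. The step from A to H also turned without the 2 A libraries with additional transcripts: the other 2 A libraries had means of 1057, 275 and 188 CPM for DN84338, DN51537 and DN89314, below the H means.

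**Figure D1:**
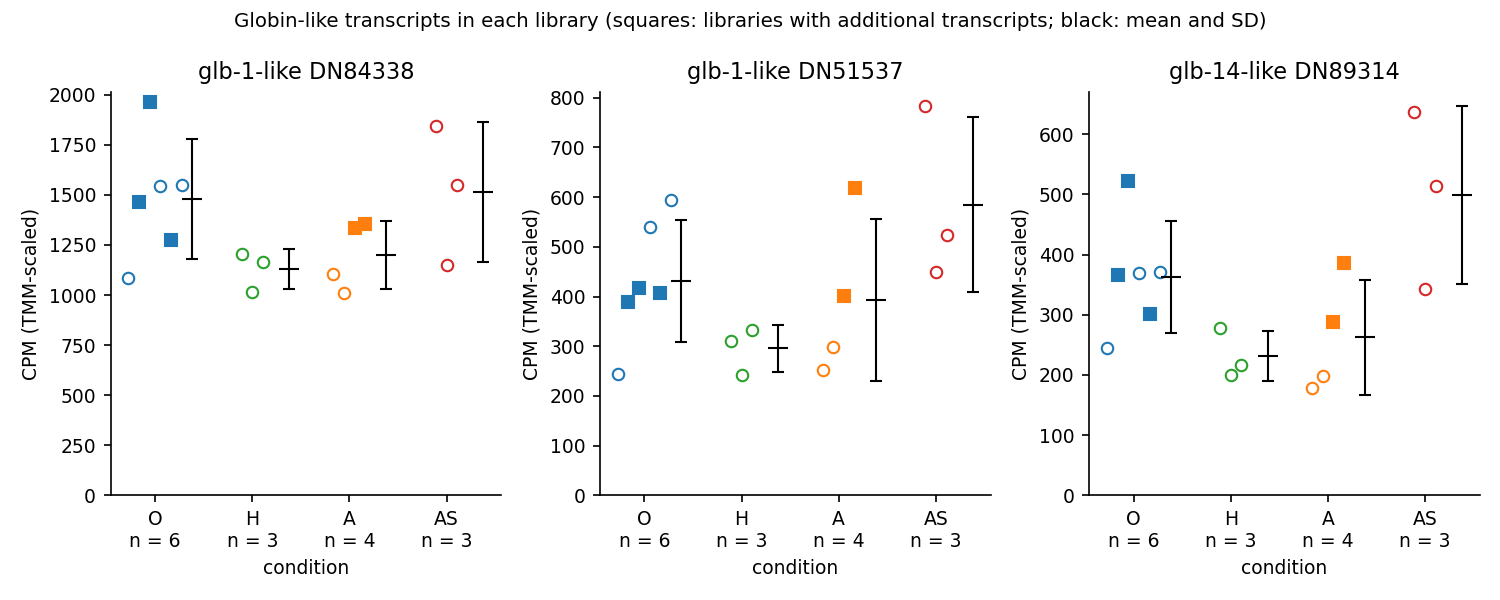
Level of each globin-like transcript in the 16 libraries by condition, in TMM-scaled CPM on axes that start at 0. Each point is a library, filled squares are the 5 libraries with additional transcripts, and the black bar gives the mean and SD of the condition. AS has the highest mean and H the lowest in each panel, and the 2 A libraries with additional transcripts lie above the other 2.

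The comparison of AS with H asks how worms without oxygen but with sulfide differ from worms under low oxygen. All 3 globin-like transcripts had higher means in AS, from 1.33-fold to 2.13-fold, but none passed the limits of the test. A transcript was called when edgeR's quasi-likelihood test gave a Benjamini-Hochberg adjusted p (FDR) of at most 0.05 over all transcripts tested and the change was at least 1.5-fold. Of 17324 transcripts tested between AS and H, 343 (1.98%) were called. With the same limits the study reported more calls between AS and H, fewer between A and H, and none in comparisons with O. The calls here are therefore not a repeat of the study's, and a globin-like transcript not called here does not contradict its report.

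*Glb-14*-like DN89314 came closest. It was 1.09 log2 units higher in AS (SE 0.30, 95% interval 0.44 to 1.74), or 2.13-fold, with an edgeR FDR of 0.0765. *Glb-1*-like DN51537 was 0.97 log2 units higher (SE 0.31, interval 0.29 to 1.65) with an edgeR FDR of 0.112. Neither interval reached 0, which amounts to an unadjusted edgeR p under 0.05. Such a p was reached in either direction by 3591 of the transcripts tested (20.7%). The AS and H libraries of both did not overlap, which also held for 14.6% of all transcripts tested when AS was the higher group. *Glb-1*-like DN84338 was 0.41 log2 units higher (SE 0.20, interval -0.02 to 0.84, edgeR FDR 0.264), and its groups overlapped because AS replicate 2 lay below H replicates 1 and 3.

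Several alternatives called both transcripts. With DESeq2 the AS-H difference of *glb-14*-like DN89314 had an FDR of 0.00638 and that of *glb-1*-like DN51537 an FDR of 0.0242, within ranges over all alternatives tried of 0.00638 to 0.25 and 0.0242 to 0.345. DESeq2 called 1300 transcripts in all between AS and H, against 343 with the edgeR fit above. Fitted to the AS and H libraries alone, edgeR gave FDRs of 0.026 and 0.036. AS replicate 2 held the lowest AS level of all 3 transcripts, and without it *glb-14*-like DN89314 passed at an edgeR FDR of 0.0428 with a difference of 1.297 log2 units. Without AS replicate 1, the highest, the difference was 0.89 log2 units and did not pass. In that fit none of the 17324 transcripts passed, and the smallest edgeR FDR was 0.0612.

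The yolk markers *vit-4*, *vit-5*-like and *vit-6* (vitellogenins, the yolk proteins that nematodes make for their eggs) moved the other way between the same libraries. Their summed level was 5783 to 8340 CPM in AS and 10494 to 22773 CPM in H, and none of the 3 was called (log2 differences from -1.27 to -1.14). The 12 muscle markers together held 26684 to 36246 CPM in AS and 22426 to 33496 CPM in H, ranges that overlap. Of these, 7 had higher and 5 lower means in AS, none of them called, with log2 differences from -0.36 in the paramyosin *unc-15-2* to 0.89 in the myosin light chain *mlc-2* (edgeR FDR 0.155), whose AS and H libraries did not overlap. The part of these tissues in the globin-like differences was not tested.

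Between A and H, which differed in oxygen without sulfide, the globin-like transcripts were close. Of 17324 transcripts 18 (0.104%) were called, none of them globin-like. The differences were 0.09 log2 units for *glb-1*-like DN84338 (interval -0.31 to 0.49, edgeR FDR 0.938), 0.41 for *glb-1*-like DN51537 (-0.22 to 1.05, FDR 0.769) and 0.18 for *glb-14*-like DN89314 (-0.42 to 0.78, FDR 0.91). These intervals leave room for changes of more than 1.5-fold in DN51537 and DN89314.

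The direction of the A-H difference rested on the 2 A libraries with additional transcripts. In *glb-1*-like DN84338, A replicates 3 and 5 had a mean of 1344 CPM, against 1057 in replicates 1 and 2. For *glb-1*-like DN51537 the means were 510.5 and 275 CPM, and for *glb-14*-like DN89314 they were 337 and 188 CPM. In each of the 3 transcripts both A libraries with additional transcripts lay above both without. How many of all transcripts split in this way was not counted, and the 3 varied together across libraries. With only the libraries without additional transcripts, all 3 differences turned to -0.10, -0.10 and -0.30 log2 units, in the order above. The part of the additional transcripts in the A levels was not tested. In O the 3 libraries with additional transcripts and the 3 without overlapped for each globin-like transcript.

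AS and A shared the lack of oxygen and differed in the added sulfide. No transcript was called (0%) of 17324 with edgeR, although 2358 had an unadjusted p under 0.05 and DESeq2 called 442. *Glb-14*-like DN89314 was 0.91 log2 units higher in AS (SE 0.27, interval 0.315 to 1.502, edgeR FDR 0.193). *Glb-1*-like DN51537 was 0.56 higher (SE 0.29, interval -0.07 to 1.18, edgeR FDR 0.428) and *glb-1*-like DN84338 0.32 higher (SE 0.18, interval -0.08 to 0.72, edgeR FDR 0.479). The libraries overlapped in each case. For *glb-14*-like DN89314 the overlap came from A replicate 5 (386 CPM), which exceeded AS replicate 2 (344 CPM). DESeq2 called this transcript (FDR 0.0378, with 0.0378 to 0.527 over all alternatives), and edgeR's likelihood ratio test did not. Against the 2 A libraries without additional transcripts, its difference was 1.404 log2 units.

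Comparisons with O were fitted to all 16 libraries and 19093 transcripts, and they share the H, A and AS libraries with those above. Between O and H no transcript was called (0%) with edgeR, with 2472 at an unadjusted p under 0.05 and 127 called by DESeq2. The O means were higher by 0.39 log2 units in *glb-1*-like DN84338 (SE 0.18, interval 0.0003 to 0.78, edgeR FDR 0.384). In *glb-1*-like DN51537 they were higher by 0.55 (SE 0.29, interval -0.08 to 1.17, edgeR FDR 0.445). In *glb-14*-like DN89314 they were higher by 0.65 (SE 0.27, interval 0.07 to 1.22, edgeR FDR 0.384). O replicate 1 was the lowest O library in all 3 transcripts and lay within the H range, so the groups overlapped.

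Between O and A 25 transcripts (0.131%) were called, none of them globin-like. The differences were 0.30 (interval -0.05 to 0.66), 0.14 (-0.42 to 0.70) and 0.46 log2 units (-0.05 to 0.98) for DN84338, DN51537 and DN89314, with edgeR FDRs of 0.735, 0.989 and 0.707. Between O and AS 109 transcripts (0.571%) were called, again none of the 3. *Glb-1*-like DN84338 differed by -0.03 log2 units (interval -0.42 to 0.35), which bounds a change in either direction to less than 1.5-fold. *Glb-1*-like DN51537 and *glb-14*-like DN89314 were lower in O by values whose intervals included 0 (-0.44, interval -1.04 to 0.16, and -0.46, interval -1.01 to 0.09).

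When A and AS were set against O and H, each condition at equal weight, the globin-like transcripts did not separate libraries without oxygen (n = 7) from those with it (n = 9). The differences were 0.06 log2 units in *glb-1*-like DN84338 (interval -0.22 to 0.34, edgeR FDR 0.945), 0.42 in *glb-1*-like DN51537 (-0.02 to 0.87, FDR 0.434) and 0.32 in *glb-14*-like DN89314 (-0.09 to 0.73, FDR 0.56). In the same contrast 127 transcripts (0.665%) were called. In total, none of the 21 differences (3 transcripts in 7 comparisons) passed the limits.

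**Figure D2:**
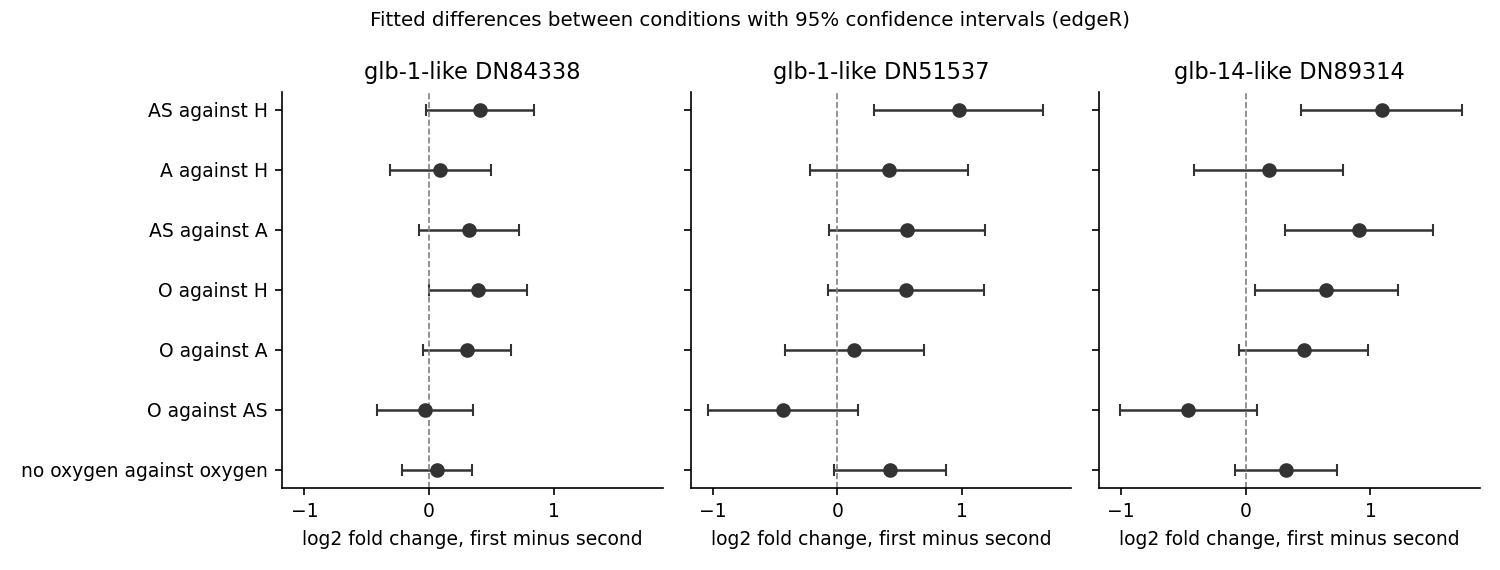
Fitted log2 fold change of each globin-like transcript in the 7 comparisons, the first named condition minus the second. Points are estimates and bars are 95% confidence intervals from edgeR, not adjusted for the number of transcripts. The AS-H intervals of DN51537 and DN89314 lie above 0, as does the AS-A interval of DN89314. The O-H intervals of DN89314 (0.07 to 1.22) and, barely, of DN84338 (0.0003 to 0.78) also lie above 0. No difference passed the FDR limit.

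Ratios between the globin-like transcripts within a library depend neither on library scaling nor, when compared across libraries, on transcript length. The ratio of *glb-14*-like DN89314 to *glb-1*-like DN84338 set AS apart. On the log2 scale it was -1.53, -1.74 and -1.59 in AS replicates 1, 2 and 3, and lower in all 13 other libraries. The nearest library was A replicate 5 (-1.81), while the other A libraries had -2.63, -2.35 and -2.22. In H the ratio was -2.11, -2.35 and -2.43, and in O it ranged from -2.15 to -1.91. As a linear ratio of counts, *glb-14*-like DN89314 over *glb-1*-like DN84338 was 0.299 to 0.346 in AS and 0.162 to 0.286 elsewhere. A ratio to *glb-1*-like DN84338 that was higher in every AS library than in all others was seen in 61 of 19092 transcripts (0.32%). That share does not measure how rare the separation is. Most of those transcripts did not vary with *glb-1*-like DN84338 across libraries (median Pearson r 0.0038), whereas *glb-14*-like DN89314 did (r = 0.91). The separation was noticed in these values, after all the ratios had been seen, and received no test of its own.

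The other ratios separated only some pairs of conditions. The log2 ratio of *glb-1*-like DN51537 to *glb-1*-like DN84338 was -1.57 to -1.23 in AS and -2.07 to -1.81 in H, 2 ranges that did not meet. It reached from -2.13 to -1.13 in A and from -2.23 to -1.38 in O. The 2 *glb-1*-like transcripts thus did not keep a fixed proportion within a condition. The log2 ratio of *glb-14*-like DN89314 to *glb-1*-like DN51537 was between -0.68 and -0.48 in A and between -0.38 and -0.02 in AS, so that these 2 conditions did not overlap. Its ranges in H (-0.62 to -0.16) and O (-0.68 to 0.32) overlapped both of them and each other. How many of all transcripts separate in such ratios was not counted, so neither gap is claimed as particular to the globin-like transcripts. In CPM, every AS library exceeded every H library in 14.6% of all transcripts tested, and every A library in 5.41%.

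**Figure D3:**
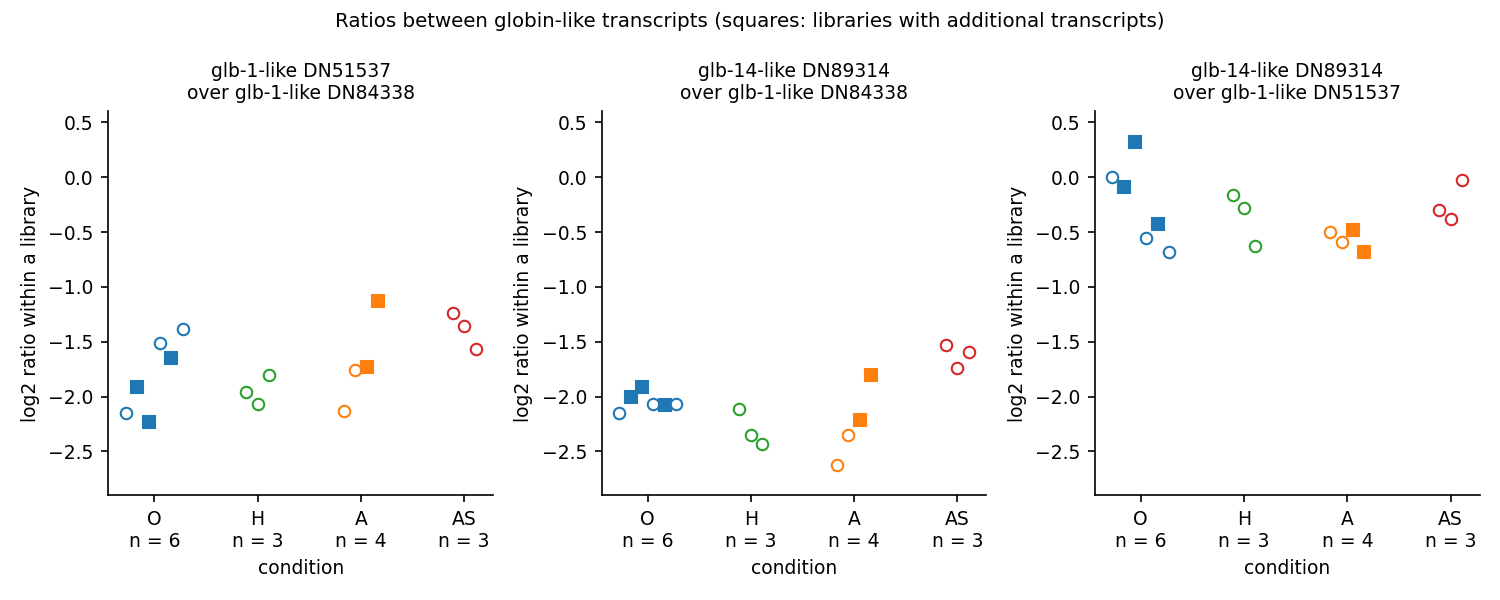
Log2 ratio of expected counts between pairs of globin-like transcripts within each library, by condition. Each point is a library, and filled squares are the 5 libraries with additional transcripts. In the middle panel the 3 AS libraries (-1.74 to -1.53) lie above all others.

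Across the 16 libraries the 3 transcripts varied together, which is given here as a description because the libraries share conditions, scaling and, in 5 cases, additional transcripts. *Glb-14*-like DN89314 and *glb-1*-like DN84338 had a Pearson r of 0.91 and a Spearman rho of 0.91 between their log2 CPM. *Glb-14*-like DN89314 and *glb-1*-like DN51537 had r = 0.85 and rho = 0.88, and the 2 *glb-1*-like transcripts r = 0.77 and rho = 0.80. In the 11 libraries without additional transcripts the 3 r values were 0.91, 0.92 and 0.93. Among 19092 other transcripts *glb-14*-like DN89314 was the second most similar to *glb-1*-like DN84338. In the reverse ranking *glb-1*-like DN84338 had rank 10.

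The transcripts most similar to each globin-like transcript were named by their Pearson r over the 16 libraries. For *glb-1*-like DN84338 they were TRINITY_DN88062_c0_g1_i3_9dedup (r = 0.91), *glb-14*-like DN89314 and TRINITY_DN82092_c0_g2_i1_9dedup (r = 0.91). For *glb-14*-like DN89314 they were TRINITY_DN88130_c0_g1_i9_9dedup (r = 0.95), TRINITY_DN84279_c0_g1_i2_9dedup (r = 0.95) and TRINITY_DN89330_c1_g1_i3_9dedup (r = 0.94). The transcripts named here by ID alone were not matched to a gene.

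*Glb-1*-like DN51537 had other neighbours. The most similar transcript was *rps-24* (TRINITY_DN84827_c0_g2_i1_9dedup), which encodes a protein of the small ribosomal subunit (r = 0.96), followed by TRINITY_DN50785_c0_g1_i1_4dedup (r = 0.96) and TRINITY_DN93904_c0_g1_i1_9dedup (r = 0.96). *Glb-14*-like DN89314 ranked 350 and *glb-1*-like DN84338 ranked 935 in its list. An r above 0.8 was reached by 705 transcripts (3.69%) with *glb-1*-like DN51537, by 258 (1.35%) with *glb-14*-like DN89314 and by 116 (0.608%) with *glb-1*-like DN84338. Over the 17 cytoplasmic ribosomal protein transcripts of the annotation, a list drawn up after *rps-24* had been seen, the median r was 0.87 with DN51537, 0.71 with DN89314 and 0.64 with DN84338. Between AS and H these 17 had a median difference of 0.48 log2 units, and 16 of them were higher in AS, but none was called.

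In 3 further lists of transcripts (9 for energy generation, 4 for peroxide handling and 3 sulfurtransferases), none was called in any of the 7 comparisons. Of the 9 energy generation transcripts, 6 had higher and 3 lower means in AS than in H, with a median difference of 0.16 log2 units. Over all transcripts tested the median was -0.02, and over the 3 globin-like transcripts 0.97. The values ranged from -0.28 in *ctc-1* (cytochrome oxidase subunit 1, which hands electrons to oxygen) to 0.70 in T02H6.11 (a subunit of the cytochrome b-c1 complex, edgeR FDR 0.108). The ATP synthase subunits *atp-1* and *atp-2* differed by 0.36 and -0.03.

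Of the 4 transcripts for enzymes that handle peroxide, all had lower means in AS than in H (median -0.28 log2 units). They were the catalases *ctl-1* (-0.27) and *ctl-2* (-0.29), the peroxiredoxin *prdx-2* (-0.14) and the peroxidasin-like C46A5.4-like (-0.86). The 3 sulfurtransferases, enzymes that move sulfur from thiosulfate or related compounds, had higher means in AS by 0.22 to 0.58 log2 units. The energy generation and peroxide lists came from transcripts chosen for their abundance in the same libraries. None of the 3 lists holds every gene of its kind. For energy generation, the study reported every differentially expressed gene as higher in AS, among them globin genes and others outside the list used here. The study reported *mpst-7* as upregulated in H, and *mpst-1* and a putative glutathione peroxidase as upregulated in AS.

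**Figure D4:**
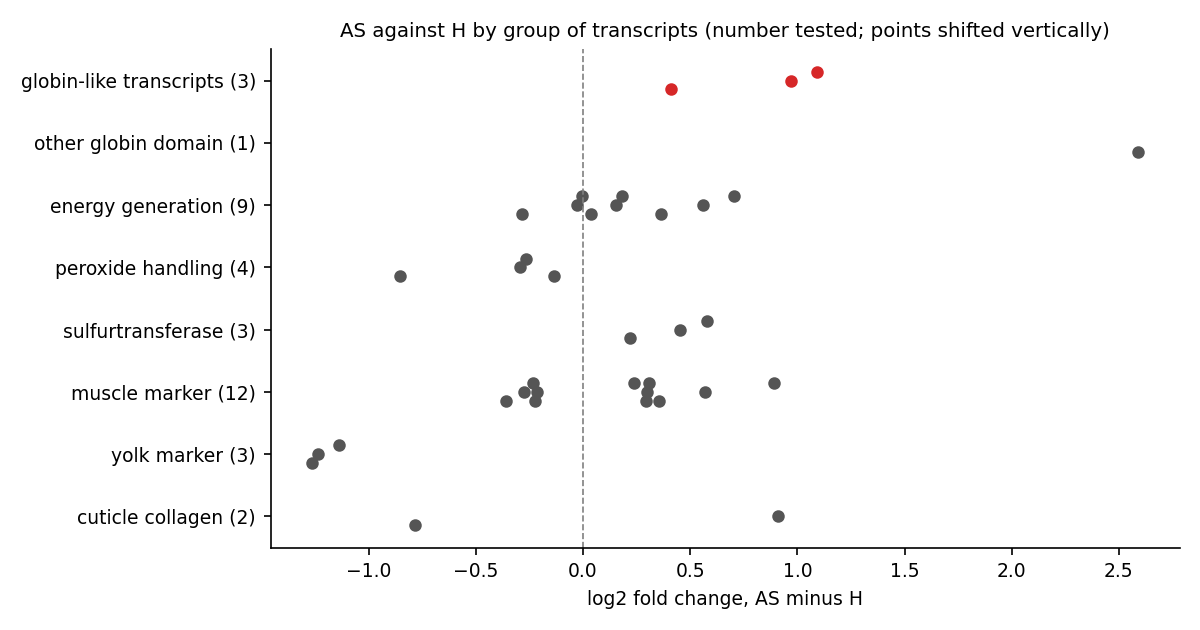
Log2 fold change between AS and H (AS minus H) of each tested transcript, by group, with the number tested in brackets. Each point is a transcript, and points are shifted vertically to keep them apart. The 3 globin-like transcripts lie between 0.41 and 1.09 and the 3 yolk markers between -1.27 and -1.14, and no point was called.

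A further 2 transcripts with a globin domain were found in the portion of the annotation used here, and both were rare. TRINITY_DN10975_c0_g1_i1_9dedup had 0, 5 and 4 expected counts in H replicates 1, 2 and 3, and 23, 7 and 26 in AS replicates 1, 2 and 3. It was lowest in H by mean (0.21 CPM in H, 1.13 in A, 1.34 in AS and 1.71 in O). None of its comparisons was called, and its AS-H difference of 2.59 log2 units had an SE of 1.06 and an edgeR FDR of 0.19. TRINITY_DN110590_c0_g1_i1_9dedup had at most 7 counts in a library and was not tested.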

How the data were processed

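RNA of 16 batches of *L. oneistus* was sequenced after rRNA depletion. The deposited values are expected counts per transcript: the authors trimmed the reads, assembled a transcriptome *de novo*, mapped with Bowtie2 and estimated counts with RSEM 1.3.1 (versions per the labels). RSEM divides reads between similar transcripts, and the counts of the 3 globin-like transcripts were fractional in 14 to 16 libraries. No transcript length, sequence or genome was used.

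After rounding, edgeR 4.0.16 (R 4.3.3, limma 3.58.1) was applied. A transcript entered the fit if 3 or more replicates of some condition held 10 or more reads. TMM scaling was followed by a fit of 1 mean per condition to 17324 transcripts in the A, AS and H libraries and to 19093 in all 16, and Benjamini-Hochberg adjustment was over all of these. Calls needed an FDR of at most 0.05 and a 1.5-fold change, the limits of the study's methods, although the numbers of calls differed from the study's. Ratios used rounded counts plus 0.5, and likeness used log2 CPM with a prior count of 2. No 2 libraries of the same condition agreed within sampling noise. Each globin-like transcript held between 2833 and 31166 expected counts in a library.

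The transcripts named were the 3 globin-like ones, those of the gene lists (other globin domains, energy generation, peroxide handling, sulfurtransferases and markers of muscle, yolk and cuticle) and the 3 most similar to each member. Members and lists were chosen with earlier results of these data known. Alternatives were other scalings, filters and tests (DESeq2 1.42.0 among them), other sets of libraries, a replicate block and a term for additional transcripts. The authors' own AS-H comparison columns (fold changes and FDR) were not used. Plots were drawn with matplotlib in Python.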

Additional observations from a re-analysis of the deposited data

How the results depend on the processing

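Of 450 alternative values for the 21 globin-like differences, 419 kept their direction and their side of the limits, 16 newly passed and 15 turned sign. The AS-H difference of *glb-1*-like DN51537 passed with DESeq2 (0.97, FDR 0.0242), edgeR's likelihood ratio test (0.97, FDR 0.0468), the term for additional transcripts (0.97, FDR 0.0432), the libraries without them (0.98, FDR 0.0346) and AS and H alone (0.97, FDR 0.036). That of *glb-14*-like DN89314 passed with DESeq2 (1.09, FDR 0.00638), the likelihood ratio test (1.09, FDR 0.0146), total counts (1.12, FDR 0.05), the same term (1.09, FDR 0.0278), the libraries without additional transcripts (1.104, FDR 0.0247) and AS and H alone (1.09, FDR 0.026). Its values with 1 replicate left out ran from 0.89 to 1.297 (without AS replicate 2, FDR 0.0428). The AS-A difference of DN89314 passed with DESeq2 (0.91, FDR 0.0378).

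Reversals all had a difference under 0.5 log2 units to begin with. The A-H differences of DN84338, DN51537 and DN89314 became -0.10, -0.11 and -0.30 with the term for additional transcripts, and -0.10, -0.10 and -0.30 without those libraries. With 1 replicate left out, the A-H difference of DN89314 ran from -0.0625 (without A replicate 5) to 0.35, the O-A difference of DN51537 from -0.0271 (without A replicate 1) to 0.44, and the no oxygen against oxygen difference of DN84338 from -0.0225 (without AS replicate 1) to 0.14. The O-AS difference of DN84338 ran from -0.20 to 0.13, positive without AS replicate 1, O replicate 1 or O replicate 5, and was 0.0335 with total counts. The cause of these changes was not tested. With unrounded counts the log2 ratios moved by less than their SD.

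The replicate numbers were not treated as pairs, since the labels do not say that a number marks a shared batch and not every pair of same-numbered libraries deviated together (correlations from -0.36 to 0.69). By number alone, a library correlated best with its own number in 17 of 38 searches of another condition. With the replicate block, the AS-H differences of DN51537 (0.97, FDR 0.0376) and DN89314 (1.07, FDR 0.0264) and the AS-A difference of DN89314 (1.12, FDR 0.0492) passed. The A-H difference of DN89314 (-0.0562) and the O-A difference of DN51537 (-0.0359) changed sign under the block.

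Over all transcripts, AS-H calls numbered 343, from 0 (without AS replicate 1) to 1300 (DESeq2), and 804 with the block. The other comparisons, in the order A-H, AS-A, O-H, O-A, O-AS and no oxygen against oxygen, had 18, 0, 0, 25, 109 and 127 calls with edgeR and 137, 442, 127, 79, 567 and 263 with DESeq2. With the block they had 24, 127, 2, 4, 435 and 199. A-H fell to 0 without H replicate 1, and without the libraries with additional transcripts O-A fell to 0, O-AS to 11 and no oxygen against oxygen to 16. In the 3 cases of 0 calls edgeR gave an unadjusted p under 0.05 for 2504 (AS-H), 1034 (A-H) and 1042 (O-A) transcripts.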

Other observations

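Of the 12 muscle markers, 5 had a Pearson r above 0.8 with *glb-1*-like DN51537 over the 16 libraries (median 0.50, range -0.32 to 0.94), against 1 with *glb-14*-like DN89314 and 0 with *glb-1*-like DN84338. Over all transcripts the shares above 0.8 were 3.69%, 1.35% and 0.608%, in the same order. With DN51537, 13 of the 17 cytoplasmic ribosomal protein transcripts also had an r above 0.8. The yolk markers ran against all 3 globin-like transcripts, with a median r of -0.75 for DN84338, -0.63 for DN51537 and -0.70 for DN89314 over their 3 transcripts. These values describe 16 libraries that share conditions and scaling, and received no test.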
